A study of Mus musculus with 2 samples.

Results

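The kinases that p38α switches on and their best known substrates were followed in long-term hematopoietic stem cells (LT-HSCs) of old mice with and without p38α. The group held 10 genes, of 17198 named genes that were measured on at least 1 of the 2 arrays. The rule that picked them used names only, although earlier results of these data were known when it was written. The genes are the MAPK-activated protein kinases Mapkapk2, Mapkapk3 and Mapkapk5 (MK2, MK3 and MK5), the mitogen- and stress-activated kinases Rps6ka5 and Rps6ka4 (MSK1 and MSK2), the MAPK-interacting kinases Mknk1 and Mknk2, and the substrates Hspb1, Atf2 and Mef2c. All 16 array probes that carry one of these names were kept.

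Each genotype was represented by 1 array. Both samples were bone marrow cells of C57BL/6J mice at 2 years of age, labelled as CD150+CD48-Flt3-CD34- LSK cells (LSK: lineage-negative, Sca-1+, c-Kit+). The study's methods give the array gate with CD41- as well. The knockout sample came from CAG-CreERT2:p38αflox/flox mice injected with tamoxifen at 50-60 weeks of age and analyzed 1 year later, and is called here the array labelled p38αΔ/Δ. Its partner, labelled wild-type and called p38α+/+ here, is described in the methods as a control of matching age that also received tamoxifen and carried the floxed alleles without Cre. The CAG promoter drives Cre in nearly all tissues, so p38α was targeted in the surroundings of the stem cells too, and effects inside and outside these cells cannot be told apart. The number of mice behind each array is not given in the sources used here. With 1 array per genotype no spread between mice could be estimated, no test was possible, and the values compare 2 RNA samples rather than 2 genotypes.

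p38α, encoded by Mapk14, is a stress-activated kinase that works largely through other proteins. It phosphorylates the MK, MSK and MNK kinases, which in turn act on mRNA-binding proteins, on chromatin and CREB-family factors, and on the translation factor eIF4E. It also phosphorylates transcription factors directly, Atf2 and the MEF2 proteins among them. In hematopoietic stem cells the pathway is known as a sensor of oxidative and inflammatory stress. All of these steps are changes of phosphate groups on proteins, which an RNA array does not measure. The values below are mRNA levels only.

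Levels are given as the log2 of the probe's background-subtracted signal minus the 75th percentile of its own array, so that 0 is the level of a fairly bright probe. A level can be compared between the arrays for 1 probe, not between probes. Where a signal is given, it is the value before this scaling. The p38α+/+ array was the brighter one (75th percentiles of 7.16 and 6.85), so a pair of signals overstates a fall and understates a rise. Differences are the p38αΔ/Δ level minus the p38α+/+ level. The error beside a difference is the scanner software's own error of both spots added in quadrature. It covers the reading of the spots and nothing that varies between mice or RNA samples.

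The label check was made on Mapk14 itself. Its first probe read 2.34 for p38α+/+ and 2.31 for the array labelled p38αΔ/Δ, a difference of -0.04 ± 0.20. The second probe read 2.08 and 2.03, a difference of -0.05 ± 0.20. Mapk14 mRNA was therefore not lower on the array labelled as its knockout, where its probes kept 97.5% and 96.5% of the p38α+/+ level. Whether either probe lies in the deleted part of the gene could not be read from the files, and a probe outside it would check nothing. The study checked the deletion by genomic qPCR in peripheral blood cells, not in the sorted LT-HSCs, and that check is not part of the array data. Every direction below rests on the labels.

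The probes that carried the main differences are shown by a stretch of 30 bases each, 5′ to 3′, because the array reads only the RNA that pairs with them. Hspb1 (mm9 chr5:136365366-136365425, plus strand) had 1 probe, and its stretch runs from base 27 to base 56 of the probe. The capitals mark the polyadenylation signal AATAAA, which begins at base 39, a hexamer found close to the end of most mRNAs. It was the 1 probe of the 16 that held it, while 10.1% of the 55681 probes on the array did.
Hspb1: ctgtttttctcaAATAAAagttgcaagcta
The probes of Rps6ka4 (mm9 chr19:6903835-6903894, minus strand) and Mknk1 (mm9 chr4:115529645-115529704, plus strand) were also the only ones for their genes, and bases 1 to 30 are given.
Rps6ka4: catcaatgtcactttatggaccgtgtgcaa
Mknk1: agcagtgagccccttcccatcgtggattct
The probe of Mef2c covers 60 bases of mRNA but 2238 bases of genome (mm9 chr13:83772788-83775025, plus strand), so it crosses at least 1 splice junction and reads spliced RNA. Its bases 1 to 30 follow.
Mef2c: agaggaatagtatgtctcctggtgtaacac
The probes of Mknk2, of Atf2 and of Mapkapk3 did not share a sign within the gene. For Mknk2 and Atf2 the brightest probe is set beside the dimmest one of that gene.
Mknk2, brightest (mm9 chr10:80128159-80128218, minus strand): aaaggcctgttgtagagtgggggacatgca
Mknk2, dimmest (mm9 chr10:80138570-80138629, minus strand): cggactgaagatggtgcagaagagaacagc
Atf2, brightest (mm9 chr2:73654638-73654697, minus strand): cactacttctgtacctagcattttgagtcc
Atf2, dimmest (mm9 chr2:73656875-73656934, minus strand): caaagggaaatcaaggaaagaccagtttgc
No 2 probes of a gene shared a stretch of 15 bases, so each reads its own part of the mRNA. Exon and UTR annotation of the mm9 build was not used here.

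The members differed in both directions. The mRNA of Hspb1, the small heat shock protein at the end of the p38-MK2 branch, was 3.36-fold lower on the array labelled p38αΔ/Δ, and that of Rps6ka4 was 2.18-fold lower. Mknk1 was 1.98-fold higher, while the other 7 genes lay within 0.5 of 0 on the log2 scale. Of the 10 genes, 6 were lower and 4 higher. Their median difference was -0.30, against -0.03 for all measured genes, whose middle 50% ran from -0.38 to 0.33.

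A difference of at least 2-fold is used below as a description, with no test. Among all measured genes 6.62% were lower by at least that much, and 4.11% were higher. Of the members, 2 of 10 genes were at least 2-fold lower and 0 of 10 higher. By probe, 3 of 16 were lower to that extent and 0 of 16 higher, beside 7.39% and 6.32% of all measured probes. A second reading of the data counted differences larger than 2 scanner errors. By that count 5 members were lower (Mapkapk5, Rps6ka4, Hspb1, Atf2 and Mef2c), 1 was higher (Mknk1) and 4 were neither, beside 20.6% of all genes lower and 16.5% higher. With 10 genes, these counts are too small to set the members apart from other genes.

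**Figure D1:**
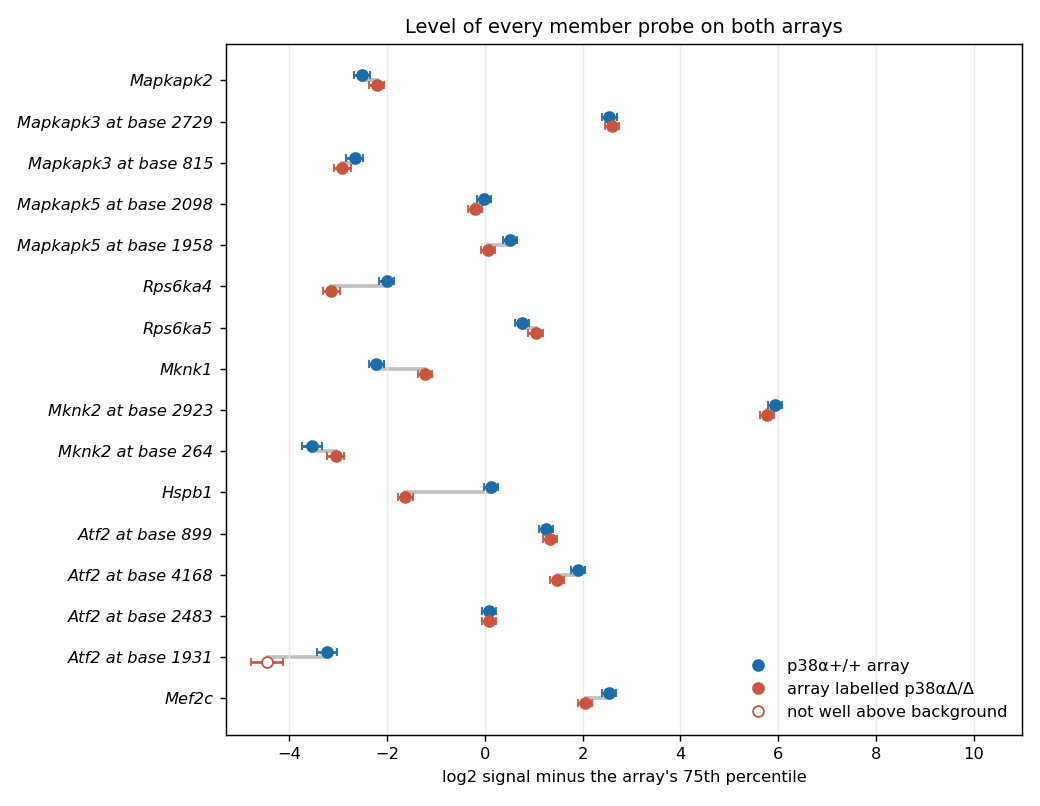
Each row is 1 of the 16 member probes, with its log2 signal minus the array's 75th percentile on the horizontal axis, blue for the p38α+/+ array and red for the array labelled p38αΔ/Δ. Bars show the scanner's error of 1 spot, the open symbol a spot not well above background, and "at base" the start position that the array file lists within the transcript. The widest gaps are those of Hspb1 (0.12 to -1.63), Rps6ka4 (-2.01 to -3.14) and Mknk1 (-2.22 to -1.23), and the dimmest Atf2 probe.

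The first role is that of the MKs. MK2, encoded by Mapkapk2, is the kinase through which p38α stabilizes many inflammatory mRNAs. Its probe read -2.51 on the p38α+/+ array and -2.21 on the other, a difference of 0.30 ± 0.22. This was 1.3 times the spot SD of 0.234 that repeated probes of like brightness showed. The spot SD joins the spread of repeated spots within each array in quadrature. Like the scanner's error, it holds nothing that varies between mice or RNA samples. MK3, encoded by Mapkapk3, is the closest relative of MK2. Its bright probe read 2.55 and 2.59, a difference of 0.04 ± 0.20. The second Mapkapk3 probe, which was designed on another transcript, read -2.67 and -2.92, a difference of -0.25 ± 0.24. Neither gene differed by more than 2 scanner errors.

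Mapkapk5 encodes MK5 (PRAK), which binds p38 and the atypical kinases Erk3 and Erk4. Its brighter probe read 0.52 and 0.06, a difference of -0.46 ± 0.20, and kept 72.7% of the p38α+/+ level. The other probe read -0.01 and -0.20, a difference of -0.19 ± 0.20. Both Mapkapk5 probes were thus lower, but only the brighter one by more than 2 scanner errors. None of the 5 MK probes reached 2-fold.

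The differences of the 2 MSK genes had opposite signs. Both kinases phosphorylate CREB and histone H3 in response to p38 and ERK. For Rps6ka4 (MSK2) the signal before scaling went from 35.5 with p38α+/+ to 13.1 with the p38αΔ/Δ label. The level was -2.01 and -3.14, a difference of -1.13 ± 0.23, which left 45.8% of the p38α+/+ level. For Rps6ka5 (MSK1) the level was 0.75 and 1.04, a difference of 0.28 ± 0.20. Rps6ka4 was thus lower by 4.8 times the spot SD at its brightness, and Rps6ka5 was higher by 3.1 times the smaller spot SD at its own. Only Rps6ka4 differed by more than 2 scanner errors, and Rps6ka5 did not. The Rps6ka4 value depended on whether a constant was added to the signals before the log. It was -0.23 with the normexp background correction and its customary offset of 50, -0.21 with 50 added to the scanner's own signals, and -0.94 with normexp and no offset. All lay on the same side of 0 and short of 2-fold. Dim probes differed more often in general. Among genes with a mean signal of 16 to 45, the class of Rps6ka4, 10.5% were at least 2-fold lower.

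The MNK genes also differed in direction. Mnk1 and Mnk2 both phosphorylate eIF4E, Mnk1 on demand of p38 and ERK, and Mnk2 with a higher basal activity. Mknk1 gave a signal of 30.8 on the p38α+/+ array and 49.1 on the other. Its level was -2.22 and -1.23, a difference of 0.99 ± 0.22, which is 1.98-fold. This was the highest difference of the 10 genes, and 4.23% of all measured genes had a higher one. In its brightness class 6.67% of genes were at least 2-fold higher. Mknk1 was at 0.50 with normexp and the offset, 0.52 with the offset alone and 0.92 with normexp alone.

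Mknk2 was among the bright probes of the array, with a signal of 8748 on the p38α+/+ array and 6309 on the other. Its level read 5.93 and 5.78, a difference of -0.15 ± 0.20. The dim Mknk2 probe, designed on a predicted transcript, read -3.53 and -3.05, a difference of 0.48 ± 0.27 where the spot SD was 0.56. The 2 probes of Mknk2 therefore had opposite signs, and neither differed by more than 2 scanner errors. Their mean was 0.16.

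Of the 3 substrates, Hspb1 differed most. It encodes Hsp27 (Hsp25 in the mouse), a chaperone that MK2 phosphorylates and that acts on actin filaments and on survival under stress. The p38α+/+ array gave a signal of 156.0, and the array labelled p38αΔ/Δ one of 37.3. The level was 0.12 and -1.63, a difference of -1.75 ± 0.21, which left 29.8% of the p38α+/+ level. The difference was 13.0 times the spot SD of 0.131 at this brightness. Of all measured genes 1.96% were lower still, and in the class with mean signals of 45 to 181 6.29% were at least 2-fold lower. Hspb1 was at -1.02 with normexp and the offset, -1.01 with the offset alone and -1.63 with normexp alone, past 2-fold in each. A lower value in sorted cells in bulk can mean fewer cells with the mRNA or less mRNA per cell, and these cannot be told apart.

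Because Hspb1 differed most and heat shock genes are read out through a known DNA element, its promoter is printed from RefSeq (GRCm38.p6 chr5:135887669-135887918, plus strand, the 250 bases before the start of the gene). Capitals mark the 2 matches to GAANNTTC, a form of the heat shock element bound by Hsf1, which begin 117 and 97 bases before the start.
Hspb1 promoter: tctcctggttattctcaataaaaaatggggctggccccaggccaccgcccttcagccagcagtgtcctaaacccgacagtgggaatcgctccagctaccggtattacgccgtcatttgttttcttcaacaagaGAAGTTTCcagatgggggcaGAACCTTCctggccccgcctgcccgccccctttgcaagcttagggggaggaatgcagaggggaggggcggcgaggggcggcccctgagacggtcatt
GAANNTTC or TTCNNGAA, which read the same on both strands, occurred in 12.8% of 32851 promoters of this length, and Hspb1 was the 1 member of 10 that had either. The full cyclic AMP response element TGACGTCA, which Atf2 and CREB proteins bind, was in 1.55% of promoters and in none of the members' promoters. The shorter core TGACG, on either strand, was in 17.8% of promoters and in those of 5 members: Hspb1, Mapkapk3, Mapkapk5, Rps6ka4 and Rps6ka5. The MEF2 element (CTA, any 4 bases, TAG) was in 3.2% of promoters and in 0 of the 10. The percentages count single promoters, while a member counted if any of its promoters matched. Mapkapk3, Mef2c and Mknk1 have more than 1 promoter each, so the 2 kinds of count are not alike. These are matches of letters and do not show that a factor was bound.

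Atf2 is a transcription factor that p38 phosphorylates directly and that pairs with Jun. Its 4 probes did not give 1 answer. The brightest probe read 1.91 and 1.47, a difference of -0.44 ± 0.20. A second probe read 1.25 and 1.33, a difference of 0.08 ± 0.20, and another read 0.09 on both arrays, a difference of -0.0017 ± 0.20. The dimmest probe had a signal of 15.4 on the p38α+/+ array and of 5.22 on the other, where it was not well above background. It was measured 2.36-fold lower (-1.24 on the log2 scale), but it was at 0.011 with normexp and the offset, and -0.015 with the offset alone. Atf2 was lower by the brightest probe and level by 2 others, so no single value describes the gene.

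Mef2c is a transcription factor of muscle, of lymphoid progenitors and of B cells, and p38 phosphorylates its activation domain. Its level was 2.53 and 2.04, a difference of -0.49 ± 0.20. The array labelled p38αΔ/Δ kept 71.2% of the p38α+/+ level, a difference of 5.3 times the spot SD of 0.092 at this brightness. Among the bright genes, those with a mean signal over 181, a 2-fold difference was rare (1.24% lower, 0.839% higher), and none of the 5 members in that class reached it.

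**Figure D2:**
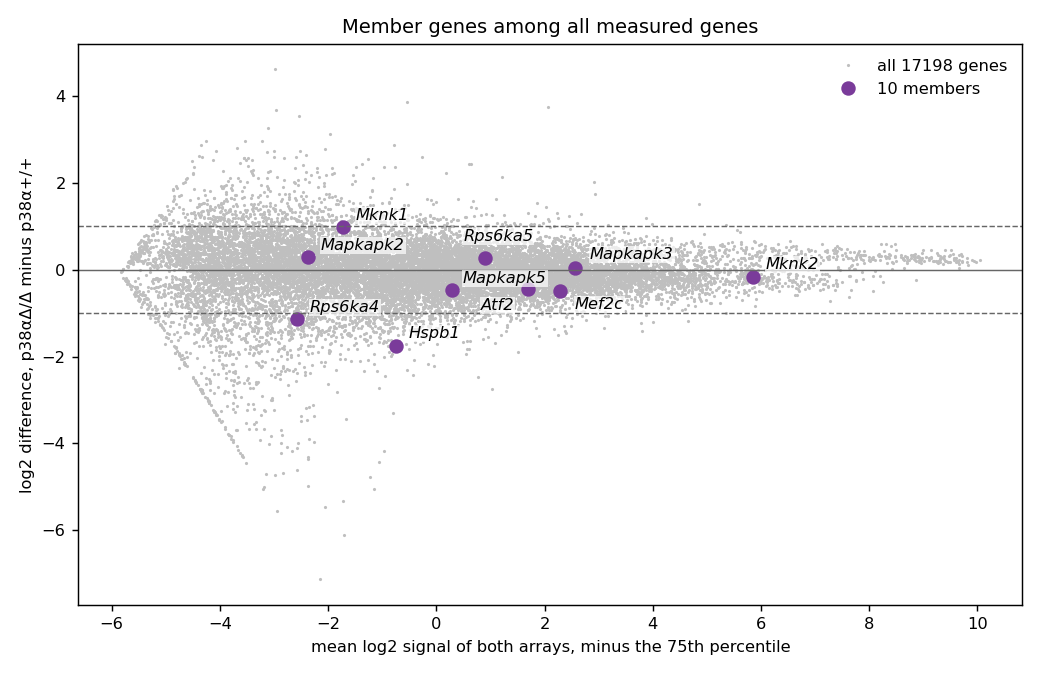
The mean log2 signal of both arrays minus the 75th percentile (horizontal) is plotted against the log2 difference (vertical) for all 17198 genes in grey and the 10 members in purple, with dashed lines at 2-fold. Hspb1 (-1.75) and Rps6ka4 (-1.13) lie below the lower line and Mknk1 (0.99) just under the upper one, and the grey cloud is widest at the dim end.

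Of the 11 other settings, the 2 that added an offset of 50, which draws the log ratios of dim probes toward 0, moved Rps6ka4, Mknk1 and Hspb1 by more than the spot SD over all repeated probes (0.201), and taking the mean of a gene's probes moved Mknk2. The remaining 103 of 110 member values stayed within that SD, those with normexp and no offset included.

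**Figure D3:**
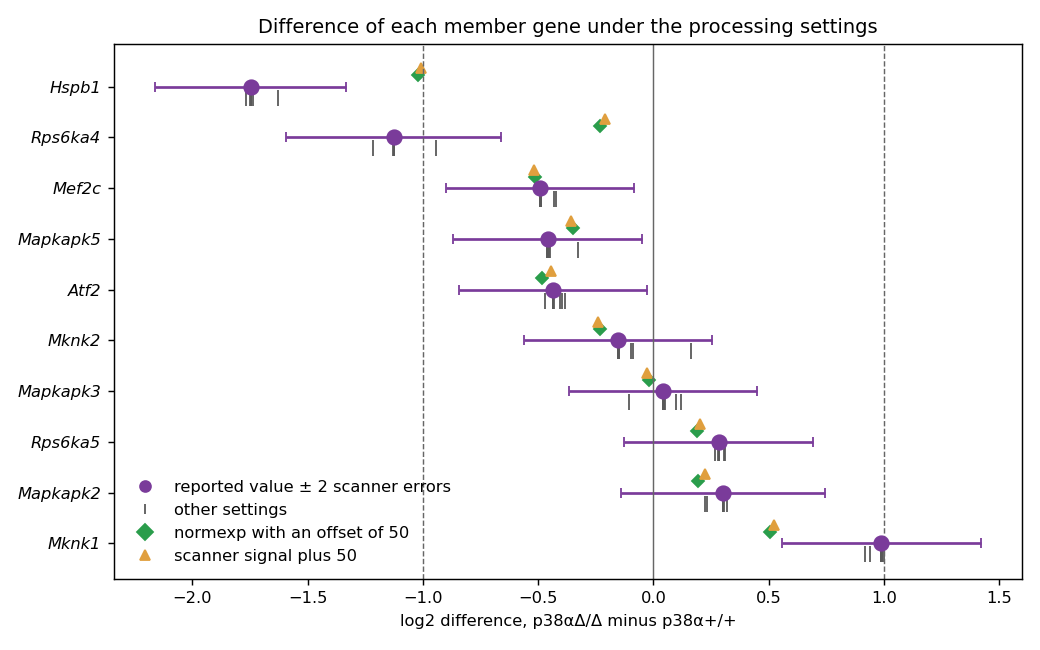
For each member gene the purple point is its log2 difference with a bar of 2 scanner errors each way, the green diamond is normexp with an offset of 50, the orange triangle the scanner signal plus 50, and grey ticks are the other settings, with dashed lines at 2-fold. Diamond and triangle of Rps6ka4 (-0.23 and -0.21) and of Mknk1 (0.50 and 0.52) lie together and nearer to 0 than the points, and Hspb1 stays lowest in each setting.

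The rest of the pathway was described with lists of genes written down by their known role. Among the 7 p38 isozymes and their activating MAP2Ks, all measured, 4 were lower and 3 higher, with a median of -0.04. Mapk12 (p38γ) was at -2.06 and was the 1 gene at least 2-fold lower. With normexp and the offset it was at -0.77. Mapk13 (p38δ) was at 0.70 and the activating kinases Map2k4 and Map2k6 at -0.39 and 0.09.

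Of the 20 other substrates of MK2, MK3 and MK5, all measured, 13 were lower and 7 higher, with a median of -0.17. Kif13b, a kinesin, was at -1.38 and was the 1 gene at least 2-fold lower, although normexp with the offset left it at -0.09. The phosphatase Cdc25b, which drives entry into mitosis, was at -0.65. At the other end were the deadenylase Parn (0.40) and Tsc2 (0.49), a brake on mTOR. Of the 6 MSK substrates 5 were lower and 1 higher, with a median of -0.16. Crem, a CREB-family factor, was at -1.10 by its brightest probe, but its probes ran from -1.10 to 0.02 and normexp with the offset gave -0.19. Creb1 was at -0.27, Rela at -0.05 and Hmgn1 at 0.02, or -0.30 as the mean of the Hmgn1 probes. The 8 substrates and partners of the MNKs were split into 4 lower and 4 higher, with a median of 0.01 and none at 2-fold. Eif4ebp1, the inhibitor of eIF4E, was at -0.39 and the splicing factor Sfpq at -0.32. The scaffold Eif4g3 was at 0.23 by its brightest probe, but its probes ran from -0.23 to 0.53. Spry2, an inhibitor of receptor signaling, was at 0.50.

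Of 20 direct p38 substrates other than the members, 19 were measured, with 13 lower, 6 higher and a median of -0.21. Eef2k, which slows translation elongation, was at -1.09 by its brightest probe, and -0.62 as the mean of its probes. Cebpb, a factor of myeloid and inflammatory genes, was at -0.92. Mef2b and Atf7, relatives of 2 members, were at 0.41 and 0.72. Over the substrate lists together, 52 of 53 genes were measured: 34 were lower, 3 of them by 2-fold or more, and 18 were higher, none of them by 2-fold, with a median of -0.15. Of all measured genes 52.3% were lower.

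Small heat shock proteins differed in both directions. Of 8 genes in that list, which also holds Hsf1, 5 were measured on both arrays. Of these 3 were lower and 2 higher, with a median of -0.18. Over all 6 measured genes, Hspb7 included, the median was -0.03. Hspb7 passed the background limit with the p38αΔ/Δ label alone, so it could hardly be lower. Hspb8 was at -1.69, but at -0.24 with normexp and the offset. Hsf1, the factor that drives heat shock genes, was at -0.29. Hspb6 was at 0.12, and Hspb11 at 0.42 by its brighter probe and -0.48 by the other.

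**Figure D4:**
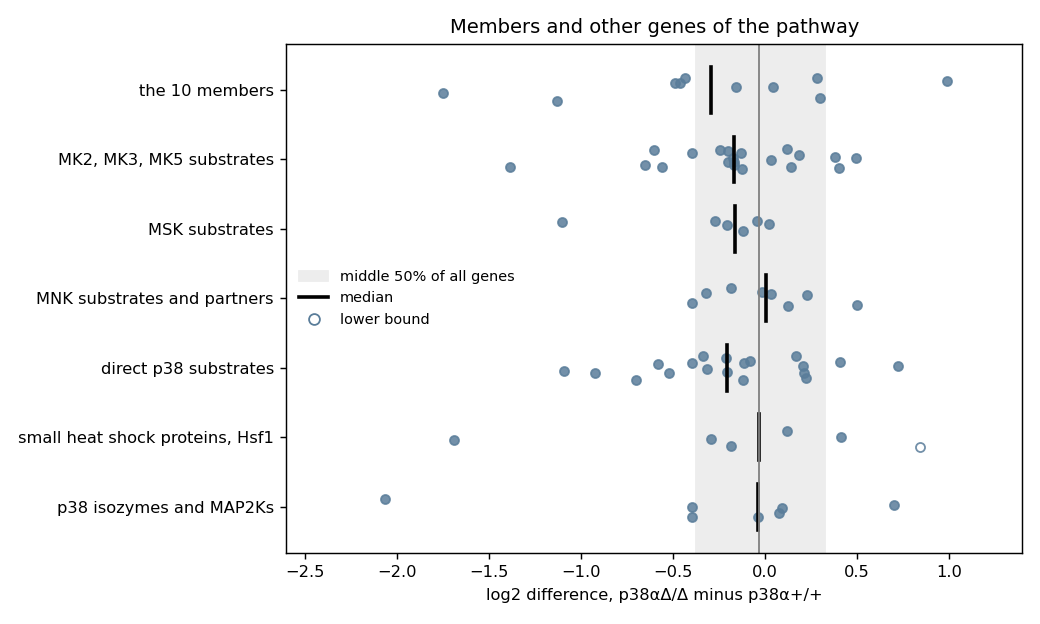
Each point is 1 gene's log2 difference, in rows for the members and for 6 lists of the pathway. A black bar marks the row's median and a grey band the middle 50% of all genes. An open point, called a lower bound in the key, is a gene well above background on 1 array alone. Medians run from -0.30 (members) to 0.01 (MNK substrates), all inside the band, and single genes such as Mapk12, Hspb1, Hspb8 and Kif13b lie far to its left.

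The cells on the 2 arrays differed in the markers of other cell types as well. All 12 stem cell markers were well above background on both arrays, 11 of them lower on the array labelled p38αΔ/Δ, with a summed signal of 157 against 127 times the 75th percentile. Of 8 neutrophil genes well above background on both arrays 7 were higher and 1 lower. The lower one was Elane, at -1.41 on the log2 scale. Mmp8 and Retnlg were above background with the p38αΔ/Δ label alone, so they could hardly be lower. Over all 10 neutrophil genes the sums were 8.17 and 25.7. All 6 B cell genes well above background on both arrays were higher. Over all 9 measured B cell genes the sums were 3.83 and 19.0. Jchain, a gene of antibody-secreting cells, made up 1.13 and 15.2 of these, and without it the sums were 2.70 and 3.74. Ms4a1, Ebf1 and Vpreb3 were above background with the p38αΔ/Δ label alone, so they could hardly be lower. Of the 4 genes whose proteins the gate removes, Cd48 was at 1.37 by its brighter probe and 0.19 by the other. Flt3 was at 0.36 by its brightest probe, but its probes ran from -0.07 to 0.88. Cd34 was at -0.15 by its brighter probe and -0.997 by the other, and Itga2b (CD41) was at -0.37. Of 5 measured T cell genes 4 were higher, with sums of 7.64 and 9.30, and Zap70 was at -4.43 by its brighter probe and -0.03 by the other. Of 8 measured erythroid genes 5 were higher, with a median of 0.26 and sums of 83.4 and 75.2, of which Car2 made up 69.8 and 56.1. Endothelial and stromal genes summed to 7.79 and 7.21, and the 7 megakaryocyte genes had a median difference of -0.0031. Mef2c is itself used by B cells and Hspb1 by many cell types, and the part of these markers in the members' differences was not tested.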

How the data were processed

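RNA of sorted LT-HSCs was hybridized with Cy3 to 1-colour Agilent mouse arrays, 1 per genotype, on 1 slide. The deposited scanner files hold intensity per spot as written by Agilent Feature Extraction 11.5.1.1, per the file headers, with background subtracted and coordinates in mm9. The authors also deposited log2 values for 35795 probes, which equalled the log2 signal minus a constant per array (7.162 and 6.841). They hold 15 of the 16 member probes.

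Control spots and outlier spots were dropped, the spots of each probe averaged, and each array's 75th percentile (7.16 and 6.85 on the log2 scale) was subtracted from the log2 signal, with a pseudocount of 0. No spot was saturated. Of 55662 probes 67.9% and 69.0% were well above background, and 57.1% had a gene name. A gene was read at its brightest probe and counted if well above background on at least 1 array. A dim side under the array's lowest signal well above background was raised to it, which makes that difference a lower bound. A dim side over that signal was left as measured. The number of arrays limits the precision. Technical spread came from 399 probes with repeated spots, and each member probe had 1 spot per array. The steps were tested on simulated data with the same noise at every brightness, where only genes well above background on both arrays were shifted. That test does not cover the larger noise of dim probes or probes dim on 1 array. Named genes were all members, Mapk14, and for each list of the pathway the 2 lowest and 2 highest genes measured on both arrays. Genes dim on 1 array that differed by at least 2-fold were named too. Genes named for other reasons, the cell type markers among them, were chosen after their values were seen. Promoters came from RefSeq (GRCm38.p6), where all 10 members matched. Python 3.11.15, pandas 2.3.3, R 4.3.3 and limma 3.58.1 (normexp, offset 50) were used. The 9 main alternatives were quantile, median and loess scaling (span 0.3), normexp, the authors' values, a filter on both arrays, no filter, the mean of probes, and outlier spots kept. Normexp without its offset and the offset without normexp were added after seeing the data. For the genes of the lists all of these were added likewise. The members and lists were chosen with earlier results of these data known.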

Additional observations from a re-analysis of the deposited data

How the results depend on the processing

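The number of members at least 2-fold lower was 2 in the reported setting. It was 1, Hspb1 alone, with normexp and an offset of 50, and likewise 1 with each of these choices taken singly, where Rps6ka4 was at -0.94 (normexp without an offset) and -0.21 (offset without normexp). Those single settings were added after seeing the data. The count was 2 in the other 8 alternatives, and the number at least 2-fold higher was 0 in all 11. The median of the members ran from -0.31 to -0.22. No member gene past 2-fold changed sign. The dimmest Atf2 probe did, from -1.24 to 0.011 with normexp and the offset. Mknk2 turned from -0.15 to 0.16 with the mean of its probes, and Mapkapk3, near 0, from 0.04 to -0.11. The median of the AU-rich mRNAs turned from 0.16 over 14 genes to -0.08 when genes had to be above background on both arrays. The alternatives moved the median of all genes by -0.05 to 0.09. No paired analysis was possible because each genotype has 1 array. Brightness limits the precision of a spot. The spot SD of a difference, built from repeated spots within each array, was 0.56 under a signal of 16 and 0.092 over 181. Of the 16 member probes 6 had a mean signal under 45.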

Other observations

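The mRNAs that the pathway acts on further downstream did not share a direction. Of 16 mRNAs with AU-rich elements, the class that MK2 stabilizes through tristetraprolin, 14 were measured. Over the 10 that were well above background on both arrays, 5 were lower and 5 higher, with a median of -0.08. The other 4 (Tnf, Il6, Cxcl1 and Cxcl2) were well above background on the array labelled p38αΔ/Δ alone, so they could hardly be lower. Ier3, an early response gene, was at -1.82 on the log2 scale, and Cxcl10, an interferon-induced chemokine, at -2.39 by its brighter probe and 0.28 by the other. Tnf was at least 7.03-fold higher with the p38αΔ/Δ label, and the bounds for Cxcl1 and Cxcl2 were 0.19 and 0.98 on the log2 scale. Il6 was measured 2.03-fold higher, with its p38α+/+ side not well above background. Vegfa was at 0.85 by its brighter probe and -0.098 by the other, and Il1b at 0.89. With normexp and the offset Tnf was at 0.78, Il6 at 0.29, Il1b at 0.35, Cxcl10 at -0.39 and Ier3 at -1.46. The neutrophil and B cell lists, whose genes were mostly higher on the same array, had sums of 8.17 against 25.7 and 3.83 against 19.0 (2.70 against 3.74 without Jchain). The part of these genes in the values above was not tested.

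Immediate early genes that MSKs switch on through CREB numbered 10 measured of 11, 6 lower and 4 higher, with a median of -0.12 and none at 2-fold. Junb was at -0.77, Egr1 at -0.47, Fosb at 0.54 and Egr2 at 0.57. Partners and targets of MEF2 were measured on both arrays for 8 of 10 genes, 3 lower and 5 higher, with a median of 0.37. Klf2, a factor of quiescence and trafficking in lymphocytes, was at 1.20. Jun was at -0.86, Nr4a1 at -0.40, and Hdac9 at 0.73 by its brightest probe, with another probe at -1.33.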
